A study of Mus musculus with 14 samples.

Results

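The genes described here encode MAP kinase phosphatases of the dual-specificity (Dusp) family, and 6 of them were named for this report by their gene symbols, Dusp1, Dusp2, Dusp4, Dusp5, Dusp6 and Dusp9. The deposited tables listed 5 of the 6, out of 26962 genes listed in any table. RNA sequencing was used to follow mouse embryonic fibroblasts of strain OG2/129SV during reprogramming. Every group received the factors Oct4, Sox2, Klf4 and c-Myc plus a second construct, Cdk9-DN or a control vector. The groups were Cdk9-DN and control cells 3, 4, 5 and 10 days after infection, with 2 libraries for each vector at days 4, 5 and 10 and 1 for each vector at day 3, which makes 14 libraries in 8 groups. The medium was that of embryonic stem cells, with LIF. By its name Cdk9-DN is a dominant-negative form of Cdk9, the kinase of P-TEFb that releases paused RNA polymerase II. The populations were harvested as bulk intermediates, so fewer cells of a type and less RNA per cell cannot be told apart.

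MAP kinase phosphatases remove phosphate from both the threonine and the tyrosine of an activated MAP kinase and so end its signal. Several of them are themselves transcribed in response to ERK signalling and form a negative feedback loop. They differ in place and substrate: Dusp1, Dusp2, Dusp4 and Dusp5 are nuclear and inducible, whereas Dusp6 and Dusp9 are mainly cytoplasmic and act on ERK. In mouse embryonic stem cells, ERK signalling favours exit from pluripotency, and Dusp9 is known there as a restraint on ERK.

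FPKM values are fragment numbers divided by transcript length and library size, so levels of different genes can be set side by side. Each FPKM was deposited with a lower and an upper bound. Group values are mean ± SD (SD, n = 2), differences are on the log2(FPKM + 1) scale, which understates changes of low values. The call threshold was an adjusted p from limma of 0.05 (Benjamini-Hochberg over all genes of a comparison). Whether replicates came from separate cultures is not given in the labels, and the p-values therefore cover only how far these libraries spread, which may be technical. A library that did not list a gene gave no value for it, never 0.

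Libraries held 4947 to 5292 genes at 1 FPKM or more, and the depth implied by the deposited bounds was 8.79 to 13.0 M fragments. The 10 highest genes took 33.4% to 66.1% of the summed FPKM in 13 libraries and 76.1% in control replicate 2 of day 5. Cdk9 was listed in 0 libraries, so its own level was not analysed here. Of 10 fibroblast markers, 6 were listed and 2, Dcn and Lum, were listed in every library. Their summed level was 8.90 FPKM in Cdk9-DN and 8.91 FPKM in control cells at day 3, 15.7 to 17.1 and 16.4 to 16.7 FPKM at day 4, 23.1 to 23.8 and 17.2 to 21.5 FPKM at day 5, and 13.3 to 15.0 and 3.85 to 4.42 FPKM at day 10.

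The promoters of Dusp5 and Dusp6 are shown because these genes took different courses with Cdk9-DN at day 10. RefSeq's table (GRCm38.p6) held a promoter for 4 of the 6 genes, Dusp1, Dusp2, Dusp5 and Dusp6. The 250 bases before each start are on the plus strand at chr19:53528895-53529144 for Dusp5 and chr10:99262981-99263230 for Dusp6. Capitals mark CArG boxes, the sequence bound by serum response factor (CC, a run of A or T, GG).
Dusp5: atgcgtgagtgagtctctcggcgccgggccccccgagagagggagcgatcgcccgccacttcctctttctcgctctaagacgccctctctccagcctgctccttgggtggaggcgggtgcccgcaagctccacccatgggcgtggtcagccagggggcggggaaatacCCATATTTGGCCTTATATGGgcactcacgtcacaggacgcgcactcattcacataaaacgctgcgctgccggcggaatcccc
Dusp6: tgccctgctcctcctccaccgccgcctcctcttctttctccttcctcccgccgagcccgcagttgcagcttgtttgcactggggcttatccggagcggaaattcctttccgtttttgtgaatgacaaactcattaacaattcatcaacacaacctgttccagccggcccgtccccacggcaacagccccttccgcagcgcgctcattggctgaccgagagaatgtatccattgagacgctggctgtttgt

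Each promoter was searched on both strands, from 250 bases before to 50 bases after the start. Dusp5 held 2 CArG boxes, which abut each other at 82 to 73 and 72 to 63 bases before the start. A CArG box occurred in 1.63% of the 32851 promoters in the table, and 2 or more in 6 of them, or 0.0183%. The GC box GGGCGG occurred 1 time in Dusp5, 0 times in Dusp6 and 3 times each in Dusp1 and Dusp2, against 35.7% of all promoters with at least 1. The cyclic AMP element TGACGTCA was found in Dusp1 alone among the 4 (1.79% of all promoters), and the E-box CACGTG in Dusp1 and Dusp2 (7.15%). TATAAA (13.6%), the AP-1 motif TGANTCA (7.81%) and the ETS motif CCGGAAG (8.86%) occurred in none of the 4. GC content over the searched window was 66.7% for Dusp5, 57.3% for Dusp6, 67.0% for Dusp1 and 70.7% for Dusp2, against a median of 52.7%. These matches describe the letters of these windows only.

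In mm9, the build of the deposited tables, Dusp5 spans 13323 bases on chromosome 19 (53603599 to 53616921) and Dusp6 4258 bases on chromosome 10 (98725865 to 98730122). Dusp9 spans 4096 bases on chromosome X (70884758 to 70888853), Dusp4 12598 bases on chromosome 8 (35870351 to 35882948), and Dusp2 2218 bases on chromosome 2 (127161895 to 127164112). The longest transcript in GENCODE M21 has 3 exons for Dusp6 and 4 exons for Dusp2, Dusp4, Dusp5 and Dusp9. Of the 6 genes, 4 passed the filter (1 FPKM or more in 2 or more of the 12 libraries fitted, those of days 4, 5 and 10), and 3 of these, Dusp5, Dusp6 and Dusp9, had enough values for a test. Dusp5 was listed in 13 of the 14 libraries, Dusp9 in 13, Dusp6 in 11, Dusp2 in 7 and Dusp4 in 2. Dusp1, the nuclear phosphatase of stress and growth factor responses, was listed in 0 libraries and was not analysed here.

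Dusp5, a nuclear phosphatase specific for ERK, had the widest range of the family, from 2.95 to 34.6 FPKM or 11.7-fold. At day 3 the Cdk9-DN library had 17.8 FPKM, with bounds of 16.3 to 19.3, and the control library did not list the gene. At day 4 it had 7.05 and 5.68 FPKM in Cdk9-DN cells, against 5.57 and 5.52 FPKM in control cells. At day 5 it had 2.95 and 3.26 FPKM in Cdk9-DN cells, against 3.63 and 3.09 FPKM in control cells. Both vectors were thus lowest at day 5, where the 4 libraries overlapped. At day 10 it had 8.03 and 7.41 FPKM in Cdk9-DN cells, against 32.4 and 34.6 FPKM in control cells. The day 10 control libraries stood above every other library, and the day 10 Cdk9-DN libraries stood above those of day 5 and of day 4.

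Dusp9, which acts mainly on ERK, stood at a lower level than Dusp5 in every library that listed both. The single day 3 libraries had 5.15 FPKM in Cdk9-DN and 6.42 FPKM in control cells, with overlapping bounds of 4.40 to 5.91 and 5.52 to 7.31 FPKM. At day 4 it had 2.47 and 2.54 FPKM in Cdk9-DN cells, against 2.58 and 2.46 FPKM in control cells. At day 5 it had 1.60 and 2.01 FPKM in Cdk9-DN cells, against 1.87 FPKM in the 1 control library that listed it. The vectors overlapped on both days. At day 10 it had 1.13 and 1.43 FPKM in Cdk9-DN cells, against 7.19 and 7.30 FPKM in control cells. The 2 day 10 Cdk9-DN libraries were the lowest of the 13 for this gene and the 2 day 10 control libraries the highest.

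Dusp6, the cytoplasmic ERK phosphatase, had the narrowest range of the 3 genes tested, from 10.5 to 26.1 FPKM or 2.49-fold. At day 3 it had 17.4 FPKM in the Cdk9-DN and 19.4 FPKM in the control library, with bounds of 16 to 18.8 and 17.9 to 20.9 FPKM. At day 4 it had 11 FPKM in Cdk9-DN and 12.6 FPKM in control cells, in 1 library each. At day 5 it had 10.5 and 11.5 FPKM in Cdk9-DN cells, against 11.4 and 11.6 FPKM in control cells. At day 10 it had 25.4 FPKM in the 1 Cdk9-DN library that listed it, against 26.1 and 25.8 FPKM in control cells. Both vectors stood at their highest at day 10 and differed there by less than the width of the deposited bounds, which were 23.8 to 27.1 FPKM for the Cdk9-DN library.

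**Figure D1:**
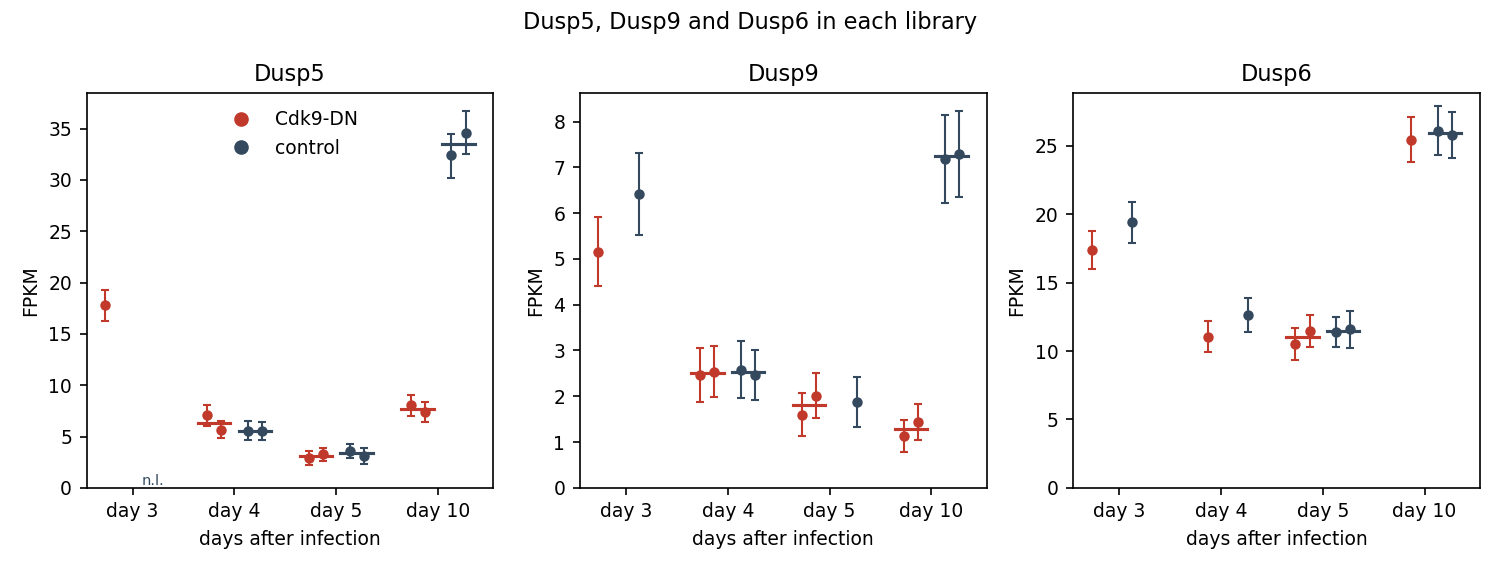
FPKM of Dusp5, Dusp9 and Dusp6 (y axes, linear, from 0) against days after infection, with Cdk9-DN in red on the left of each day and control in dark blue on the right. Points are libraries, vertical bars the authors' lower and upper bounds, horizontal lines means of 2 libraries, and n.l. marks a group in which no library listed the gene; at day 10 the Cdk9-DN libraries stood at 7.41 and 8.03 FPKM for Dusp5 and 1.13 and 1.43 FPKM for Dusp9, against 32.4 and 34.6 FPKM and 7.19 and 7.30 FPKM in control libraries, while Dusp6 stood at 25.4 FPKM with Cdk9-DN, against 25.8 and 26.1 FPKM in control libraries.

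The remaining members were measured too sparsely for a comparison. Dusp4, an inducible nuclear phosphatase, had 11.6 FPKM in control replicate 1 of day 4 and 10.2 FPKM in control replicate 2 of day 5, and 0 Cdk9-DN libraries listed it. The bounds of these values, 10.2 to 12.9 and 8.94 to 11.5 FPKM, overlapped. Its level in these libraries was close to that of Dusp6 on the same days and above those of Dusp5 and Dusp9. Dusp2, known from activated lymphocytes, stood at 0.211, 0.0607 and 0.148 FPKM in the 3 Cdk9-DN libraries that listed it, at days 4, 5 and 10. In control cells it stood at 0.103 and 0.354 FPKM at day 5 and at 0 and 0.209 FPKM at day 10. The lower bound was 0 in all 7 libraries that listed Dusp2, so no difference was detectable at this depth.

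The first comparison asked what Cdk9-DN did to the family on each day. At day 10, Dusp5 and Dusp9 were lower with Cdk9-DN and Dusp6 did not pass the test, while at days 4 and 5 none of the 3 was called. Dusp5 averaged 7.72 ± 0.442 FPKM in Cdk9-DN cells and 33.5 ± 1.59 FPKM in control cells at day 10, 4.34-fold lower with Cdk9-DN (log2 difference -1.98, SE 0.107, adjusted p = 4.58e-05 by limma). Dusp9 averaged 1.28 ± 0.212 and 7.24 ± 0.0760 FPKM, 5.65-fold lower with Cdk9-DN (-1.86, SE 0.102, adjusted p = 1.37e-04 by limma). Dusp6 stood at 25.4 FPKM (1 library) and 25.9 ± 0.229 FPKM (-0.03, SE 0.0753, adjusted p = 0.840 by limma), and its p-value takes the spread of the single library from the other groups.

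The 95% confidence intervals of the day 10 differences were -2.24 to -1.73 for Dusp5, -2.10 to -1.61 for Dusp9 and -0.23 to 0.18 for Dusp6. The interval of Dusp6 lay apart from both of the others. With Cdk9-DN at day 10, 2 of the 3 Dusp genes tested were called lower, against 28.9% called among all 5740 genes tested, of which 14.4% lower and 14.5% higher. The members were chosen with earlier results of these data known, so these shares are set side by side as description only. The differences of Dusp5 and Dusp9 lay far from the middle of this comparison, with a lower value in 131 genes for Dusp5 and in 159 genes for Dusp9. The calls of both genes were kept in every alternative fit that could test them, 18 for Dusp5 (-2.10 to -1.93) and 17 for Dusp9 (-2.42 to -1.76). Those fits that leave out a day 4 or day 5 library can change the standard error but not the day 10 difference itself.

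At day 5 the Cdk9-DN difference was -0.09 for Dusp5 (interval -0.34 to 0.17), -0.04 for Dusp9 (-0.34 to 0.27) and -0.06 for Dusp6 (-0.23 to 0.11). At day 4 it was 0.16 for Dusp5 (-0.09 to 0.42), -0.01 for Dusp9 (-0.25 to 0.24) and -0.18 for Dusp6 (-0.42 to 0.06). Few genes of any kind passed on these days, 0.169% of 5902 at day 5 (0.0678% higher, 0.102% lower) and 0.0336% of 5950 at day 4 (all lower). At an unadjusted p under 0.05, 500 genes passed at day 5 and 388 at day 4, none of them a Dusp gene (unadjusted p = 0.102 for Dusp6 at day 4 was the smallest of the 6 values).

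Whether the Cdk9-DN difference itself changed between day 5 and day 10 was tested with an interaction term. It changed by -1.90 for Dusp5 (SE 0.151, interval -2.25 to -1.54, adjusted p = 4.28e-04 by limma) and by -1.82 for Dusp9 (SE 0.162, interval -2.21 to -1.43, adjusted p = 0.00134 by limma). For Dusp6 it was 0.03 (SE 0.0973, interval -0.23 to 0.30, adjusted p = 0.855 by limma). The same test called 16.2% of 5485 genes, 7.42% with a negative and 8.75% with a positive change. The value of Dusp9 rests on the 1 control library of day 5 that listed it and cannot be had without it.

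The second comparison followed each vector from day 5 to day 10. All 3 genes rose in control cells, whereas with Cdk9-DN Dusp5 and Dusp6 rose and Dusp9 was not called. Dusp5 stood at 33.5 ± 1.59 FPKM at day 10, against 3.36 ± 0.383 FPKM at day 5 in control cells, 9.96-fold higher (2.99, SE 0.107, adjusted p = 1.58e-06 by limma). In Cdk9-DN cells it stood at 7.72 ± 0.442 FPKM at day 10, against 3.10 ± 0.219 FPKM at day 5, 2.49-fold higher (1.09, SE 0.107, adjusted p = 3.02e-04 by limma). Dusp5 thus rose with both vectors, by less with Cdk9-DN, and the difference between the 2 rises is the interaction given above.

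Dusp6 rose with both vectors, 2.32-fold in Cdk9-DN cells (1.14, interval 0.94 to 1.35, adjusted p = 9.34e-04 by limma) and 2.26-fold in control cells (1.11, interval 0.94 to 1.28, adjusted p = 2.98e-04 by limma). Dusp9 stood at 1.28 ± 0.212 FPKM at day 10, against 1.81 ± 0.292 FPKM at day 5 in Cdk9-DN cells (-0.30, adjusted p = 0.0693 by limma). In control cells it stood at 7.24 ± 0.0760 FPKM at day 10, against 1.87 FPKM (1 library) at day 5, 3.87-fold higher (1.52, adjusted p = 1.47e-04 by limma). The Dusp9 value with Cdk9-DN passed when the libraries were rescaled, with adjusted p = 0.0292 after median-of-ratios scaling and 0.0274 after quantile normalization, both in limma. Over this step 34.9% of all 5783 genes tested were called with Cdk9-DN, 22.5% higher and 12.4% lower, and 49.8% of 5798 genes in control cells, 27.3% higher and 22.5% lower. The Cdk9-DN calls, 1304 higher and 715 lower, became 1017 and 956 with median-of-ratios factors, and 1005 and 846 with quantiles made equal. The control calls, 1582 higher and 1303 lower, became nearly even with slightly more lower, 1441 and 1475, and 1334 and 1468.

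**Figure D2:**
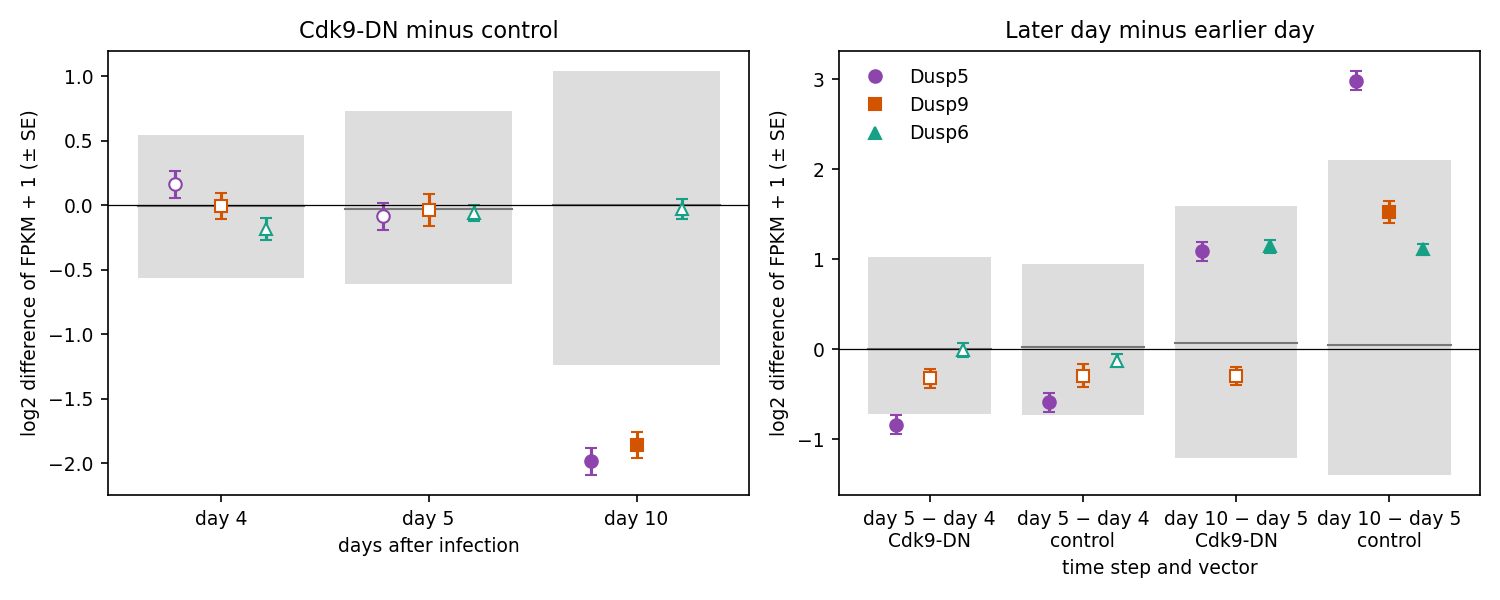
Log2 differences of FPKM + 1 with their standard errors for Dusp5 (circles), Dusp9 (squares) and Dusp6 (triangles), on the left for Cdk9-DN minus control by day and on the right for each time step within a vector. Filled symbols passed an adjusted p of 0.05, the grey boxes span the 5th to the 95th percentile of all genes tested with their median as a line, and at day 10 Dusp5 (-1.98) and Dusp9 (-1.86) lie below the box, whose lower edge is at -1.24.

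From day 4 to day 5, Dusp5 fell with both vectors, and neither Dusp6 nor Dusp9 was called. It stood at 3.10 ± 0.219 FPKM at day 5, against 6.36 ± 0.969 FPKM at day 4 in Cdk9-DN cells (-0.84, SE 0.107, adjusted p = 0.0135 by limma). In control cells it stood at 3.36 ± 0.383 FPKM at day 5, against 5.55 ± 0.0320 FPKM at day 4 (-0.59, SE 0.107, adjusted p = 0.0288 by limma). The call in control cells ended without any 1 of its 4 libraries (adjusted p = 0.124 and 0.119 without replicate 1 or 2 of day 4, 0.0588 and 0.136 without replicate 1 or 2 of day 5), with no filter (0.0856) and with a replicate block (0.0513). The call in Cdk9-DN cells ended without replicate 1 of day 4 (0.0556) and without replicate 1 (0.0787) or replicate 2 (0.0596) of day 5.

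Dusp9 fell short of the threshold over this step, with -0.32 in Cdk9-DN cells (adjusted p = 0.175 by limma) and -0.29 in control cells (adjusted p = 0.264 by limma). Dusp6 had -0.01 in Cdk9-DN cells (interval -0.21 to 0.20) and -0.13 in control cells (-0.33 to 0.08). In this step 3.28% of 5906 genes were called with Cdk9-DN (1.95% lower, 1.34% higher) and 5.02% of 5951 in control cells (3.19% lower, 1.83% higher). The single libraries of day 3, which allow no test, were higher than the day 4 libraries of the same vector for each of the 3 genes wherever both were listed.

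The order of the members by level changed with day and vector. Dusp5 over Dusp6, taken within each library that listed both, was 0.291 in the Cdk9-DN library of day 10, against 1.24 and 1.34 in the control libraries of day 10. At day 5 this ratio was 0.281 and 0.284 with Cdk9-DN, against 0.319 and 0.267 in control cells. Dusp5 was thus the most abundant of the 3 in control cells at day 10, whereas Dusp6 was the most abundant with Cdk9-DN on that day and with both vectors at day 5. Dusp9 over Dusp6 was 0.0563 in the Cdk9-DN library of day 10, against 0.275 and 0.283 in the control libraries, and 0.153 to 0.176 in the 3 libraries of day 5 that listed both.

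Ordered by group, Dusp5 was highest in control cells at day 10 (33.5 FPKM), followed by Cdk9-DN at day 3 (17.8, 1 library), Cdk9-DN at day 10 (7.72), Cdk9-DN at day 4 (6.36), control at day 4 (5.55), control at day 5 (3.36) and Cdk9-DN at day 5 (3.10). Among neighbours in this order, Cdk9-DN and control did not differ beyond their spread at day 5, and the day 4 values of the 2 vectors were 5.52 to 7.05 FPKM. For Dusp9 the order was control day 10 (7.24), control day 3 (6.42, 1 library), Cdk9-DN day 3 (5.15, 1 library), control day 4 (2.52), Cdk9-DN day 4 (2.51), control day 5 (1.87, 1 library), Cdk9-DN day 5 (1.81) and Cdk9-DN day 10 (1.28). The 2 vectors were neighbours on days 3, 4 and 5 and stood at opposite ends on day 10.

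Markers of other cell states moved with the day 10 difference, and their part in it was not tested. Of 10 epithelial markers 7 were listed and 3 in every library, Krt18, Cldn4 and Cldn3. Their summed level was 58.5 to 65.2 FPKM in Cdk9-DN and 262 to 271 FPKM in control cells at day 10, and 2.43 to 8.27 FPKM in the 10 libraries of days 3 to 5. Of 10 pluripotency markers 9 were listed and 6 in every library, among them Utf1 and Dppa5a. They summed to 19.7 to 20.5 FPKM in Cdk9-DN and 46.6 to 54.4 FPKM in control cells at day 10, and to at most 0.372 FPKM in any library of days 3 to 5, where Dppa3 was listed at 0 throughout. Dcn and Lum, the fibroblast markers listed throughout, were higher with Cdk9-DN on that day, as given above. Of 10 macrophage markers 7 were listed and 3 in every library, Tyrobp, C1qa and Lyz2, which stood at 0 in both Cdk9-DN libraries and summed to 0.0349 to 0.133 FPKM in control cells at day 10, and to 11.7 FPKM in Cdk9-DN and 10.1 FPKM in control cells at day 3. Of 8 endothelial markers 5 were listed and 2 in every library, Cdh5 and Cldn5, with sums of 0.957 to 0.974 FPKM in Cdk9-DN and 3.68 to 3.81 FPKM in control cells at day 10.

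Other genes of the pathway were taken from lists, which were also chosen with earlier results of these data known. The first list held growth factors and receptors that activate ERK. Of 34 such genes 15 were listed and 5 tested at day 10, where 3 were lower and 1 was higher with Cdk9-DN, beside 14.4% lower and 14.5% higher among all 5740 genes tested. Their median was -1.01, against 0.00 over all genes. Both the count of 3 lower and this median include Erbb3, whose call is set aside below, so neither is read as support. Hbegf, a ligand of the EGF receptor, had 8.47 FPKM (1 library) in Cdk9-DN cells, against 30.3 and 31.6 FPKM in control cells (-1.75, adjusted p = 2.47e-04 by limma). Tgfa, another such ligand, had 2.38 and 2.05 FPKM, against 5.09 and 5.83 FPKM (-1.01, adjusted p = 0.00330 by limma). The receptor gene Erbb3, also among the 3 lower, had 7.31 FPKM (1 library), against 15.9 and 18.0 FPKM (-1.11). At days 3 to 5 it was at most 0.941 FPKM in any library. Erbb3 thus passed the filter only through the control libraries of day 10, where it was high, and its call is not read as support. The ligand gene Ereg was the 1 higher, with 1.38 and 1.28 FPKM in Cdk9-DN cells, against 0.610 and 0.788 FPKM in control cells (0.46, adjusted p = 0.0438 by limma).

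Of 42 genes for MAP kinases, their kinases and adaptors, 9 were listed and 4 tested, in 5 entries since Map3k4 had 2, with 2 lower and 1 higher at the same background of 14.4% and 14.5%. The small GTPase gene Rras2 was lower, with 23.9 and 23.8 FPKM in Cdk9-DN cells, against 51.0 and 56.4 FPKM in control cells (-1.14, adjusted p = 3.68e-04 by limma). Mapkapk2, a kinase downstream of p38, was lower as well, with 28.8 and 28.2 FPKM, against 35.8 and 38.1 FPKM (-0.36, adjusted p = 0.00213 by limma). Ptpn11, a phosphatase that promotes ERK activation, was higher, with 35.9 and 36.1 FPKM in Cdk9-DN cells, against 26.8 and 28.6 FPKM in control cells (0.37, adjusted p = 0.00228 by limma).

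Among 24 other feedback inhibitors and output genes of ERK, 15 were listed and 9 tested at day 10, with 6 lower, 1 higher and 2 not called (median -0.81), beside 14.4% lower and 14.5% higher among all genes. Maff, a small Maf factor, had 20.2 FPKM (1 library) in Cdk9-DN cells, against 67.9 and 70.7 FPKM in control cells (-1.73, adjusted p = 0.00372 by limma). Plaur, the urokinase receptor gene, had 23.3 FPKM (1 library), against 62.9 and 57.2 FPKM (-1.32, adjusted p = 0.00151 by limma). Ier3 had 15.0 and 15.3 FPKM, against 41.1 and 33.7 FPKM (-1.25, adjusted p = 0.00105 by limma). Errfi1, an inhibitor of the EGF receptor, had 3.33 and 3.07 FPKM, against 6.76 FPKM in 1 library (-0.89, adjusted p = 0.00414 by limma). Spry2, a feedback inhibitor of ERK signalling, was the 1 higher, with 30.0 FPKM (1 library) in Cdk9-DN cells, against 23.4 and 22.9 FPKM in control cells (0.36, adjusted p = 0.0197 by limma). It was named after its value was seen. From day 5 to day 10, 3 of 9 tested genes of this list were higher in Cdk9-DN cells, beside 22.5% of all genes. In control cells 6 of 9 were higher and 1 lower, beside 27.3% and 22.5% of all genes. The count with Cdk9-DN was thus close to its background.

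Immediate early factors gave 8 lower, 1 higher and 3 not called among 12 tested, of 19 in the list and 15 listed (median -0.43), beside 14.4% lower and 14.5% higher among all genes. Fosl1, among those not called, stood at 0 FPKM in every day 10 library that listed it, so its test could show no difference. The lowest difference was that of Cyr61 (-1.66), with 70.9 and 67.6 FPKM in Cdk9-DN cells, against 221 FPKM (1 library) in control cells. Fosl2 (-0.89) had 14.8 and 14.4 FPKM, against 28.0 FPKM (1 library). Zfp36 (-0.68) had 13.4 FPKM (1 library), against 22.4 and 21.8 FPKM. Junb had 63.5 and 61.0 FPKM, against 96.9 and 89.3 FPKM (-0.57, adjusted p = 0.00351 by limma). Egr1 was the 1 higher, with 17.7 and 18.5 FPKM in Cdk9-DN cells, against 12.4 and 13.1 FPKM in control cells, and was named after its value was seen (0.47, adjusted p = 0.00232 by limma).

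Among 17 other phosphatases of the Dusp class, 5 were listed and 3 tested at day 10, with 1 lower, 1 higher and 1 not called, beside 14.4% lower and 14.5% higher among all genes. Dusp26, an atypical phosphatase, had 0.825 FPKM in the 1 Cdk9-DN library that listed it at day 10, against 2.93 and 4.06 FPKM in control cells, and was listed at 0 in the 10 libraries of days 3 to 5. It reached 1 FPKM in the 2 control libraries of day 10 alone and so passed the filter through the group where it was high. The zeros also narrow its residual spread. Its call, the 1 lower of this list, is therefore not read as support, nor is that count beside its background. Dusp28 had 9.78 and 8.63 FPKM in Cdk9-DN cells, against 6.65 FPKM (1 library) in control cells (0.41, adjusted p = 0.0338 by limma). The 1 not called, Dusp23, had 0.688 and 0.449 FPKM, against 0.701 and 0.365 FPKM (0.04, adjusted p = 0.895 by limma). At days 4 and 5, 0 tested genes of these 5 lists were called for Cdk9-DN against control. Among all genes the share called was 0.0336% of 5950 at day 4 and 0.169% of 5902 at day 5. The count of 0 is therefore no result about these lists.

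**Figure D3:**
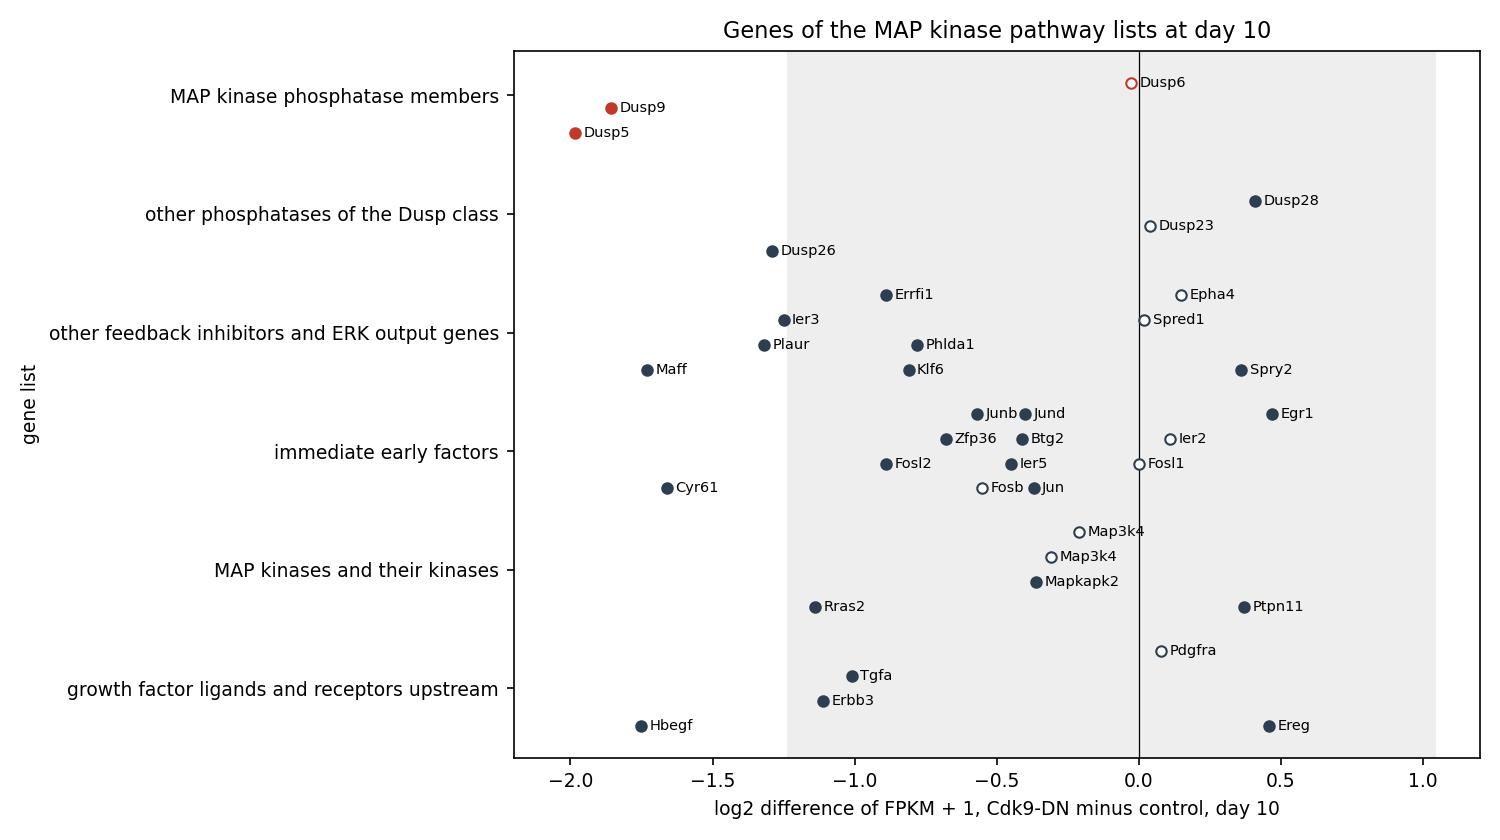
Log2 difference of FPKM + 1 at day 10, Cdk9-DN minus control (x axis), for the 3 tested Dusp members in red and for the tested genes of the 5 pathway lists in dark blue, 1 row per list; the vertical place within a row has no meaning. Filled points passed an adjusted p of 0.05 and the grey band spans the 5th to the 95th percentile of all genes tested, -1.24 to 1.04; Dusp5 and Dusp9 are the 2 lowest points of the plot and Dusp6 lies at -0.03.

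The genes whose pattern was most like that of Dusp5 over the 12 libraries of days 4, 5 and 10, among 542 genes with a mean of at least 5 FPKM and a value in each, were Hspb8 (Pearson's r = 0.986 on the log2 scale), Nfkbia (0.981) and Kcmf1 (0.980). Hspb8, a small heat shock protein gene, had 61.3 and 59.8 FPKM in Cdk9-DN cells, against 113 and 104 FPKM in control cells at day 10. Nfkbia, the inhibitor of NF-kappaB, had 30.0 and 29.3 FPKM, against 59.9 and 60.8 FPKM. For Dusp9, over its 11 libraries and among 575 genes, the genes most like it included Fam46b (0.943) and Mfge8 (0.912), and Fam46b had 8.88 and 9.24 FPKM in Cdk9-DN cells, against 28.1 and 26.1 FPKM in control cells at day 10. For Dusp6, over its 9 libraries and among 641 genes, they were Ly6d (0.992), Bckdha (0.991) and Vax2 (0.987). At day 10 Ly6d had 43.0 FPKM in the 1 Cdk9-DN library used, against 40.8 and 41.7 FPKM in control cells. Vax2 had 11 FPKM there, against 16.6 and 15.6 FPKM, and so was lower with Cdk9-DN, unlike Dusp6. The correlation does not compare the size of a rise, and Ly6d was at most 0.868 FPKM in any library of days 3 to 5. Extending the rule to Dusp9 and Dusp6, which miss libraries, was decided after the data were seen. The points share their libraries and the step to day 10, so these values describe likeness only, and no gene named here for 1 member was named for another.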

How the data were processed

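RNA of 14 libraries was sequenced. Per the submitters' processing notes, CASAVA 1.8.2, TopHat2 2.0.10 and Cufflinks 2.2.1 were used, with builds mm9 and NCBIM37; further settings are not given in the sources used here. The authors deposited FPKM with bounds, in 1 table per library. Here, values of 16 repeated identifiers were summed and 1 failed entry dropped. Depth was derived from the bounds, taken as 2 standard deviations, and covers counting error only. Genes with at least 1 FPKM in at least 2 of 12 libraries (7460) were fitted on log2(FPKM + 1) in limma 3.58.1 under R 4.3.3, as 6 group means with an intensity trend, on the libraries that list them and with at least 2 residual degrees of freedom. The day 3 libraries stayed outside the fit. The 8 contrasts were adjusted over all genes tested. Tables were handled with pandas 2.3.3 under Python 3.11.15. The procedure was tested on simulated data. Named were all members, up to 4 called genes of each list with the largest day 10 difference, and the 3 genes best correlated with a member listed in all 12 libraries. Outside this rule, Spry2, Egr1, Dusp23 and Fosl1 were chosen after their values were seen. Members and lists were chosen with earlier results of these data known. Alternatives were another pseudocount, no filter, 2 scalings, complete genes only, a replicate block and leaving out each library.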

Additional observations from a re-analysis of the deposited data

Results flagged for a closer look

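The Cdk9-DN difference changed between day 5 and day 10 for Dusp5 and Dusp9, each by its interaction term in limma. The change was -1.90 for Dusp5 (adjusted p = 4.28e-04), whose difference was -1.98 at day 10 and -0.09 at day 5, with both Cdk9-DN libraries below both control libraries at day 10. It was -1.82 for Dusp9 (adjusted p = 0.00134), whose difference was -1.86 at day 10 and -0.04 at day 5, with 1 control library at day 5. Groups of 2 libraries were too small to look for a single library that stands apart.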

How the results depend on the processing

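At day 10, Dusp5 and Dusp9 stayed lower with Cdk9-DN, and past the threshold, in each of the 18 and 17 alternatives that could test them, as did their interaction in 18 and 16. Leaving out a day 4 or day 5 library cannot move the day 10 difference, and leaving out a day 4 library cannot move the interaction. With only genes listed in all 12 libraries, Dusp5 alone could be tested, so 1 Dusp gene was called for the day 10 effect (2 in the full fit), for the step to day 10 in control (3) and in Cdk9-DN cells (2), and for the interaction (2). The genes called over all tested were then 1, 3 and 768 for the effect at days 4, 5 and 10 (2, 10 and 1658 in the full fit), 86 and 1485 for the 2 control steps (299 and 2885), 46 and 1058 for the 2 Cdk9-DN steps (194 and 2019), and 385 for the interaction (887). With no filter they were 18 and 24 at days 4 and 5, and 147 and 71 for the step to day 5 in control and Cdk9-DN cells; pseudocount 0.1 gave 6 at day 4. Under both the missing filter and the block, 0 Dusp genes were called for the control step to day 5 (1 in the full fit). Same-numbered replicates did not deviate together (r of -0.22 to 0.21 over the 15 pairs of groups). With 1 replicate difference per group, this check cannot show whether same-numbered libraries have a common origin. The replicate block gave 5 genes at day 5, and 147 and 85 for the step to day 5 in control and Cdk9-DN cells.

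Leaving out 1 library gave 1 to 10, 9 to 19 and 976 to 1535 genes for the effects at days 4, 5 and 10, 43 to 263 and 2317 to 2799 for the control steps, 38 to 185 and 1397 to 1989 for the Cdk9-DN steps, and 525 to 790 for the interaction. The Dusp genes called were 0 to 1 for each step to day 5, 2 to 3 and 1 to 2 for the step to day 10 in control and Cdk9-DN cells, and 1 to 2 for the interaction; the losses at day 10 come from Dusp9 or Dusp6 having no value in a group without its 1 library. Quantile normalization split the calls of the step to day 5 into 65 higher and 232 lower in control cells (109 and 190 in the full fit) and 44 and 186 with Cdk9-DN (79 and 115). Signs turned only for differences that were not called: Dusp9 at day 4 was 0.011 under median-of-ratios scaling, 0.003 under quantile normalization and -0.03 to 0.02 with a library left out. Dusp9 at day 5 was 0.005 with the block and -0.14 to 0.071 with a library left out, and Dusp5 at day 5 -0.17 to 0.004. Dusp6 from day 4 to day 5 with Cdk9-DN was 0.013 with the block and -0.066 to 0.051, and its interaction -0.025 to 0.092, with a library left out. The cause of these shifts was not tested. Depth limits Dusp2, at 0 to 2 implied fragments, and leaves 40 to 241 for Dusp9.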
